A study of Mus musculus with 6 samples.

Results

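The genes examined were 10 genes of MHC class I antigen presentation and of the immunoproteasome in mouse colon: the heavy chains H2-K1 and H2-D1, the light chain B2m, the transport and loading genes Tap1, Tap2 and Tapbp, the catalytic subunits Psmb8, Psmb9 and Psmb10, and the transactivator Nlrc5. They were picked by gene symbol, each symbol named 1 row of the count table, and they are 10 of the 55487 genes listed there. MHC class I molecules display peptides cut from a cell's own proteins to CD8 T cells. The proteasome cuts these peptides, TAP carries them into the endoplasmic reticulum, and tapasin helps load them onto a heavy chain paired with B2m. Interferon raises most of these genes together, Nlrc5 drives class I promoters, and under interferon the immunoproteasome subunits take the place of the constitutive catalytic subunits. In the gut, epithelial cells carry class I molecules at rest and are known to raise them in colitis.

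The colon epithelial cells (IECs) came from Nsd2f/f and Nsd2Vil-KO mice, with 3 libraries per genotype, and every mouse had received dextran sodium sulphate (DSS), a polymer in the drinking water that damages the colonic epithelium. The Nsd2f/f controls, labelled NSD2-FF and titled WT, carried loxP-flanked Nsd2, the gene of a histone methyltransferase, and no Cre. The Nsd2Vil-KO mice, labelled NSD2-FF-VILCRE, carried the same alleles and Cre under the Villin promoter, which is active in the epithelium of the small and large intestine and not in leukocytes or stroma. No library without DSS was analysed here, so a rise of class I genes in colitis could not be examined. The cells were shaken off the tissue in EDTA and were not sorted. The strain was C57BL/6J, and the study's general colitis protocol used young adult mice. The sex of the mice, the day on which cells for these libraries were taken, and whether each library came from a single mouse are not given in the sources used here, so p-values measure the spread between these libraries.

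The libraries held between 15439123 and 20350539 counted reads, of which the 10 genes took between 0.324% and 1.15%. Nsd2 itself had 47.9, 51.2 and 24.6 CPM (reads scaled to a common library size by the TMM method) in Nsd2f/f replicates 1, 2 and 3, and 24.2, 10.4 and 20.8 CPM in Nsd2Vil-KO replicates 1, 2 and 3. It differed by −1.16 on the log2 scale in Nsd2Vil-KO (standard error 0.39, unadjusted p = 0.0217, adjusted p = 0.992 by edgeR's quasi-likelihood test), and Nsd2f/f replicate 3 lay next to Nsd2Vil-KO replicate 1. The libraries labelled Nsd2f/f replicate 3 and Nsd2Vil-KO replicate 2 stood apart from the other 4. They held 4296 and 3684 counts of Xist, a transcript of the inactive X chromosome of female cells, against 1 to 5 counts in each of the others, and mitochondrial genes took 19.6% of counts in Nsd2f/f replicate 3 against 5.51% to 9.13% elsewhere. The labels were kept as given, and the levels, the comparison of genotypes, the subunit ratios and the pathway lists are given both with and without these 2 libraries. The 13 epithelial markers summed to between 22835 and 31973 CPM, while 6 general leukocyte markers summed to between 27.1 and 177 CPM, so the label IECs was met by the markers, with leukocyte transcripts present in every library.

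Of the 10 genes, 7 lie on chromosome 17 of GRCm38, in or beside the mouse MHC. Tapbp (33915899 to 33929292) and H2-K1 (33996017 to 34000347) come first, Psmb9 (34181987 to 34187764), Tap1 (34187553 to 34197225), Psmb8 (34197721 to 34201454) and Tap2 (34203527 to 34216321) follow side by side, and H2-D1 (35262730 to 35267499) lies further along. B2m lies on chromosome 2 (122147686 to 122153083), and Psmb10 (105935735 to 105938444) and Nlrc5 (94434356 to 94527272) lie on chromosome 8. Tap1 and Psmb9 are transcribed away from each other, with 225 bases between their RefSeq starts, and their exons share 212 bases on opposite strands in GENCODE.

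Promoter sequences are shown for the members that held a motif of the pathways known to act on class I genes. RefSeq promoters on GRCm38.p6, from 250 bases before to 50 bases after the start, were found for 8 of the 10 genes. They were searched on both strands for the form GGGANTNCC of the kappaB motif, the interferon-stimulated response element, ISRE (GAAANNGAA or GAANNGAAA), and the gamma-activated site, GAS (TTCNNNGAA). Longer or otherwise different forms of these motifs were not searched, so unmarked letters may hold them. Capitals mark the matches, positions count from the base before the start, −1, and all stretches read 5′ to 3′ on the strand of the gene. The first is chr17:34000348-34000467 on the minus strand, the second chr17:35262923-35262952 on the plus strand, the third chr2:122147538-122147686 on the plus strand and the last chr17:34198088-34198117 on the plus strand.
H2-K1: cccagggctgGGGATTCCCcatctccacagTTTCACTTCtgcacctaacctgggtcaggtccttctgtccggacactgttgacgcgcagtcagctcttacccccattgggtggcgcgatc
H2-D1: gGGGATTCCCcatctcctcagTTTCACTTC
B2m: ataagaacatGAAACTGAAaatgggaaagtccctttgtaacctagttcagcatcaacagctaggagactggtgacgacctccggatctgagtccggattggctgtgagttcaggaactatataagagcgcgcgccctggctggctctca
Psmb8: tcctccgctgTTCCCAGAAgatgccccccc

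H2-K1 and H2-D1 held the same pair of motifs, kappaB at −110 to −102 and ISRE at −90 to −82 in H2-K1, and kappaB at −170 to −162 and ISRE at −150 to −142 in H2-D1. The kappaB match reads the same on both strands, and the ISRE match of both genes is on the opposite strand. Over 100 bases lined up without gaps on the kappaB match, 92 were identical between the heavy chain genes. Of the forms searched, B2m held an ISRE at −139 to −131 and Psmb8 a GAS at −97 to −89. Whether the unmarked letters of B2m, such as gggaaagtccc, hold another form of kappaB was not searched. The shown stretches of H2-D1 and Psmb8 are cut to 30 bases because GENCODE places longer first exons over them. Of 32851 RefSeq promoters of this length, 14.8% held an ISRE of either form, 8.3% a GAS and 3.95% kappaB in the form searched. No motif overlapped another in the members. Tap1, Tapbp, Psmb9 and Psmb10 held none of these letters in the window, and Tap2 and Nlrc5 had no entry. Of the constitutive subunits, Psmb6 held an ISRE at −70 to −62 and Psmb5 no match.

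Levels of different genes were compared per length, as CPM per kilobase of annotated exon (RPKM), over the 6 libraries of both genotypes. B2m had the highest level, 1657 ± 689 RPKM (SD, n = 6), followed by H2-D1 at 1030 ± 349 and H2-K1 at 849 ± 281 RPKM. Psmb10 stood at 135 ± 15.8 and Tapbp at 76.9 ± 21.0 RPKM, and Tap1 at 45.9 ± 24, Psmb9 at 31.4 ± 13.3, Psmb8 at 19.0 ± 7.76 and Tap2 at 13.5 ± 4.87 RPKM followed. Nlrc5 was the lowest, at 5.28 ± 3.51 RPKM. The order was the same in the 4 libraries without Xist transcripts, where B2m stood at 1714 ± 799, Tap1 at 60.7 ± 5.35 and Nlrc5 at 7.36 ± 1.64 RPKM (SD, n = 4). Neighbours in this order overlapped in their ranges over the 6 libraries, except that H2-K1 lay above Psmb10 and Psmb10 above Tapbp without overlap. Compared within each library, the first gene of a neighbouring pair was the higher in all 6 libraries. The exceptions were Tap1 over Psmb9 and Psmb8 over Tap2, each in 5 libraries. The exon lengths take in every annotated transcript, which lowers the level of genes with long, rare transcripts. Paralogous class I genes resemble each other closely, and the counting may have split reads between them.

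The genotypes were then compared to ask whether loss of Nsd2 in the epithelium changed these genes in DSS-treated mice. The screening criterion asked for a change of more than 1.2-fold together with p below 0.05 before adjustment. It was passed by 0 of the 10 genes, where 3.29% of the 14650 tested genes did (482 genes, 241 in each direction). At an adjusted p below 0.05, edgeR called 0 of the 10 genes and 0% of all tested genes, against 482 genes at an unadjusted p below 0.05, while DESeq2 called 4 genes and limma-voom called 0. The genotypes overlapped in CPM for every one of the 10 genes, where 9.9% of tested genes had no overlap. Of the 10 genes, 5 were higher and 5 lower in Nsd2Vil-KO, with a median log2 change of −0.02 beside 0.00 over all tested genes, and all 10 confidence intervals of 95% took in 0. The smallest p among the 10 was 0.51 and the adjusted p lay between 0.993 and 0.9999 (edgeR's quasi-likelihood test). For a single gene, the exact permutation test over the 10 divisions of 6 libraries cannot give a p below 0.1.

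**Figure D1:**
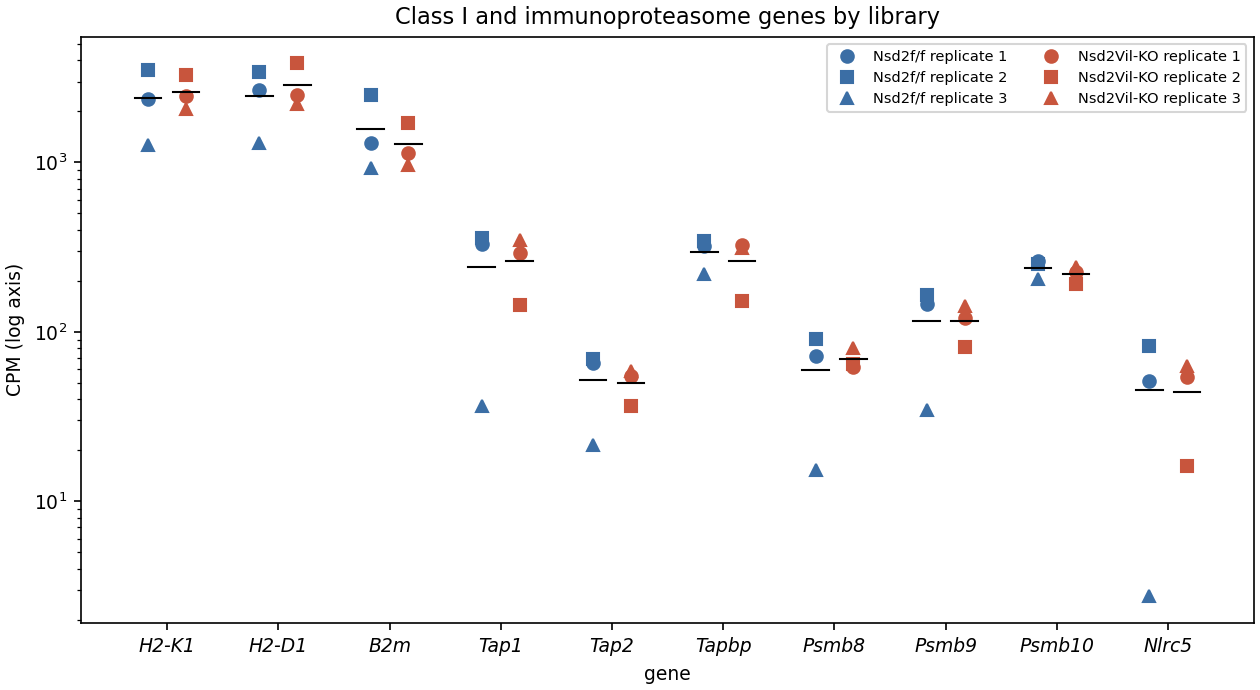
CPM (vertical log axis) of the 10 genes (horizontal axis) in the 6 libraries, with blue points for Nsd2f/f, red points for Nsd2Vil-KO, the point's shape for the replicate and a black line for the mean of 3 libraries. The blue triangles of Nsd2f/f replicate 3 are the lowest point for 8 genes and the red squares of Nsd2Vil-KO replicate 2 for Tapbp and Psmb10.

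The heavy chains H2-K1 and H2-D1, which hold the peptide, were both lowest in Nsd2f/f replicate 3 and highest in replicate 2 of either genotype. H2-K1 (ENSMUSG00000061232) had 2373, 3531 and 1268 CPM in Nsd2f/f replicates 1, 2 and 3, and 2457, 3282 and 2062 CPM in Nsd2Vil-KO. The means were 2391 ± 1132 and 2600 ± 622 CPM (SD, n = 3). On the log2 scale the fold change was 0.12 (standard error 0.42, 95% interval −0.87 to 1.11, adjusted p = 0.999 by edgeR). All 3 Nsd2Vil-KO libraries lay inside the range of the controls. H2-D1 (ENSMUSG00000073411) had 2659, 3428 and 1308 CPM in Nsd2f/f and 2493, 3841 and 2209 CPM in Nsd2Vil-KO, with means of 2465 ± 1073 and 2848 ± 872 CPM (SD, n = 3). This gave a log2 fold change of 0.21 (standard error 0.43, 95% interval −0.80 to 1.21, adjusted p = 0.996 by edgeR). Nsd2Vil-KO replicate 2 was above every control, and the other Nsd2Vil-KO libraries lay between Nsd2f/f replicates 3 and 1. Exact permutation tests, two-sided, gave p = 0.8 for H2-K1 and p = 0.7 for H2-D1.

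B2m (ENSMUSG00000060802), the light chain that every class I molecule needs to reach the surface, had 1297, 2485 and 932 CPM in Nsd2f/f and 1143, 1719 and 971 CPM in Nsd2Vil-KO. The means were 1571 ± 812 and 1278 ± 392 CPM (SD, n = 3). The fold change was −0.30 on the log2 scale (standard error 0.43, 95% interval −1.30 to 0.71), the lowest of the 10, with an adjusted p = 0.993 by edgeR and p = 0.7 by the exact permutation test. The 3 Nsd2Vil-KO libraries again lay inside the range of the controls, whose highest library was Nsd2f/f replicate 2. B2m alone passed the screening criterion under any alternative: with limma-voom and quality weights its log2 fold change was −0.77 at an unadjusted p of 0.0397 and an adjusted p = 0.502, where 9.7% of all tested genes passed.

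Tap1 and Tap2 form the TAP transporter. Tap1 (ENSMUSG00000037321) had 331, 359 and 36.4 CPM in Nsd2f/f and 292, 143 and 348 CPM in Nsd2Vil-KO, so that 1 library in each genotype was low. The log2 fold change was 0.11 (standard error 0.75, 95% interval −1.66 to 1.87). Tap2 (ENSMUSG00000024339) had 65.5, 69.1 and 21.6 CPM in Nsd2f/f and 54.8, 36.3 and 58.7 CPM in Nsd2Vil-KO, and differed by −0.06 on the log2 scale (standard error 0.43, 95% interval −1.08 to 0.95). The same libraries were low for both chains of the transporter, and the remaining 4 lay between 292 and 359 CPM for Tap1 and between 54.8 and 69.1 CPM for Tap2. Tapbp (ENSMUSG00000024308), which encodes tapasin, had 321, 345 and 218 CPM in Nsd2f/f and 323, 153 and 314 CPM in Nsd2Vil-KO. Its log2 fold change was −0.16 (standard error 0.34, 95% interval −0.96 to 0.63), and here Nsd2Vil-KO replicate 2 and not Nsd2f/f replicate 3 was the lowest. Exons of Tap2 and Tapbp overlap other annotated genes over 698 and 904 bases on the opposite strand, and reads of these cannot be told apart if strand was not used. Tapbp also shares 149 exonic bases with Zbtb22 on the same strand, where strand would not help.

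The immunoproteasome subunits differed in how far they varied. Psmb8 (ENSMUSG00000024338) had 72.1, 90.6 and 15.2 CPM in Nsd2f/f and 61.7, 64.6 and 80.7 CPM in Nsd2Vil-KO, giving 0.22 as its log2 fold change (standard error 0.56, 95% interval −1.10 to 1.53). It had the highest fold change of the 10 genes, and only Nsd2f/f replicate 3 was low. Psmb9 (ENSMUSG00000096727) had 145, 165 and 34.5 CPM in Nsd2f/f and 121, 81.8 and 143 CPM in Nsd2Vil-KO, giving a log2 fold change near 0.00 (standard error 0.53, 95% interval −1.26 to 1.26). Like Tap1, its head-to-head neighbour, it was low in both libraries that stood apart. Psmb10 (ENSMUSG00000031897) had 261, 252 and 205 CPM in Nsd2f/f and 226, 193 and 241 CPM in Nsd2Vil-KO, and its log2 fold change was −0.12 (standard error 0.20, 95% interval −0.58 to 0.34). Psmb10 had the narrowest interval and varied least, with its highest library 1.36 times its lowest. Exons of Psmb8 overlap an annotated gene over 498 bases on the opposite strand. Adjusted p-values were 0.996 for Psmb8, 0.9999 for Psmb9 and 0.994 for Psmb10 (edgeR), and the exact permutation p-values were 0.9, 1 and 0.5.

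Nlrc5 (ENSMUSG00000074151), the transactivator of class I promoters, varied most. It had 51.1, 82.1 and 2.75 CPM in Nsd2f/f, of which the last rested on 34 counts, and 54.3, 16.1 and 62.6 CPM in Nsd2Vil-KO. The highest library was 29.9 times the lowest. The log2 fold change was −0.03 (standard error 0.97, 95% interval −2.33 to 2.27, adjusted p = 0.999 by edgeR). These libraries could not tell a change of 2 on the log2 scale from none. The same 2 libraries were low as for Tap1, Tap2 and Psmb9, and the other 4 lay between 51.1 and 82.1 CPM.

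**Figure D2:**
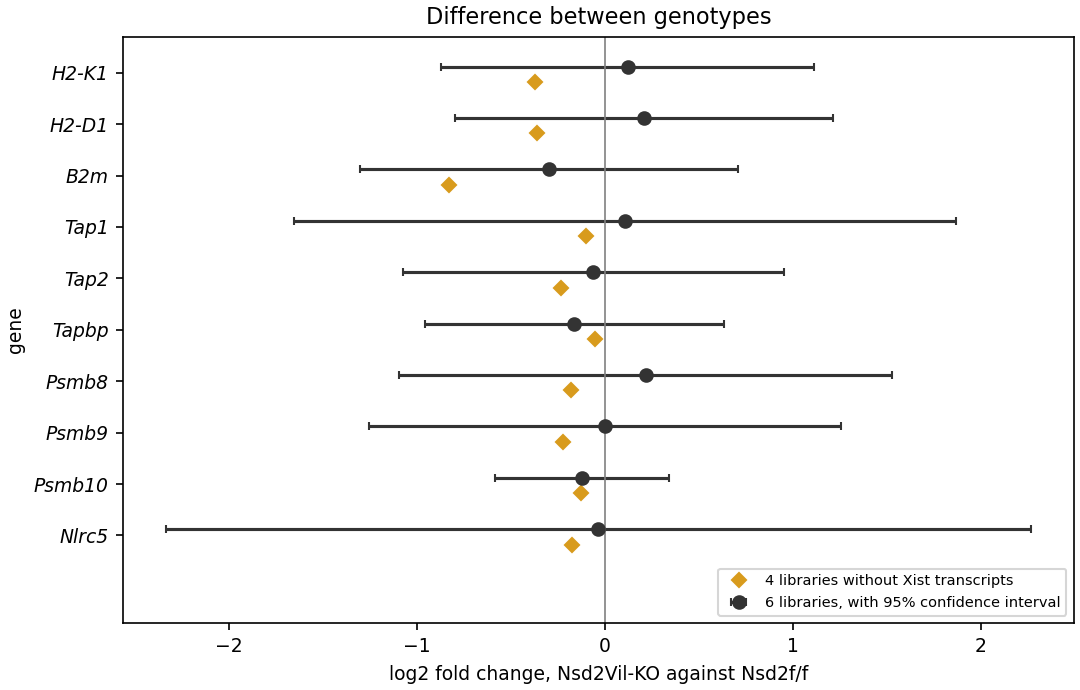
Log2 fold change of Nsd2Vil-KO against Nsd2f/f (horizontal axis) for each of the 10 genes (vertical axis). Black points with bars are the fit of 6 libraries and its 95% confidence intervals, all of which take in 0, and orange diamonds are the fit of the 4 libraries without Xist transcripts, all of which lie below 0.

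Over the 6 libraries, the SD within each genotype exceeded the difference between the genotype mean CPM for each of the 10 genes. For Psmb10, the SDs were 30.2 and 24.7 CPM around means of 239 and 220 CPM in Nsd2f/f and Nsd2Vil-KO. The ratio of the highest to the lowest library, taken over both genotypes together, also holds the genotype difference. It lay between 1.36 and 29.9 over the 10 genes. This ratio had a median of 3.07 over the 10 genes, beside 2.14 over the 14365 tested genes with counts in every library. In the 4 libraries without Xist transcripts the same ratio had a median of 1.42 over the 10 genes, beside 1.36 over those genes. Within these 4 libraries, Tapbp and Psmb10 varied by 1.1 and 1.16 times and Tap1 by 1.23 times, while B2m varied by 2.56 times. There the genotypes did not overlap for H2-D1, B2m, Tap2, Psmb9 and Psmb10 and overlapped for the other members. Tap2, for example, had 65.5 and 69.1 CPM in Nsd2f/f against 54.8 and 58.7 CPM in Nsd2Vil-KO. The share of all tested genes without overlap in these 4 libraries was not computed, so this is a description only.

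In Nsd2f/f replicate 3 all 10 genes were below both other controls, as were 44.1% of tested genes, and 8 of the 10 were under 0.5 times the mean of the other controls, as were 15.7% of tested genes. Relative to that mean, Nlrc5 was at 0.0412, Tap1 at 0.105, Psmb8 at 0.187, Psmb9 at 0.222 and Tap2 at 0.32 times. H2-K1 and H2-D1 were both at 0.43 times and B2m at 0.493 times, and Tapbp and Psmb10 were the least low, at 0.655 and 0.798 times. The median of the 10 genes on the log2 scale was −1.41, beside −0.02 over all tested genes.

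In Nsd2Vil-KO replicate 2 the 10 genes parted. The chains of the class I molecule were higher than in both other Nsd2Vil-KO libraries, H2-K1 at 1.45 times their mean, H2-D1 at 1.63 and B2m at 1.63 times. Nlrc5 was at 0.275 times, Tap1 at 0.449, Tapbp at 0.479, Psmb9 at 0.62, Tap2 at 0.64 and Psmb10 at 0.826 times, each lower than in both other Nsd2Vil-KO libraries, and Psmb8 lay between them. Of all tested genes, 43.1% were higher and 44.1% lower there than in both other Nsd2Vil-KO libraries. Side by side, the libraries with Xist transcripts had 2.75 (Nsd2f/f) and 16.1 CPM (Nsd2Vil-KO) of Nlrc5, a ratio of 5.86, and ratios of 4.26 for Psmb8, 3.94 for Tap1, 2.94 for H2-D1, 0.941 for Psmb10 and 0.7 for Tapbp. Each of these ratios compares 1 library with 1 library and has no replicate check.

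In the 4 libraries without Xist transcripts all 10 genes were lower in Nsd2Vil-KO, where 50.04% of tested genes were, and 0 passed the screening criterion, where 11% of tested genes did. Their median log2 fold change was −0.20, beside 0.00 over all tested genes. B2m had the lowest log2 fold change, −0.83 (standard error 0.35, unadjusted p = 0.0755, adjusted p = 0.487 by edgeR), and H2-K1, H2-D1 and Tap2 had −0.37, −0.36 and −0.24. Tapbp, Tap1 and Psmb10 had −0.05, −0.10 and −0.13. With 2 libraries per genotype these values rest on few samples, and the 10 genes are not independent of each other. Without Nsd2f/f replicate 3 alone, all 10 genes were again lower, with a median of −0.37, and without Nsd2f/f replicate 2 the median was 0.44 with 8 genes higher, and without Nsd2Vil-KO replicate 2 or 3 it was 0.12 or −0.17, so the sign of the median turned with the library left out.

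**Figure D3:**
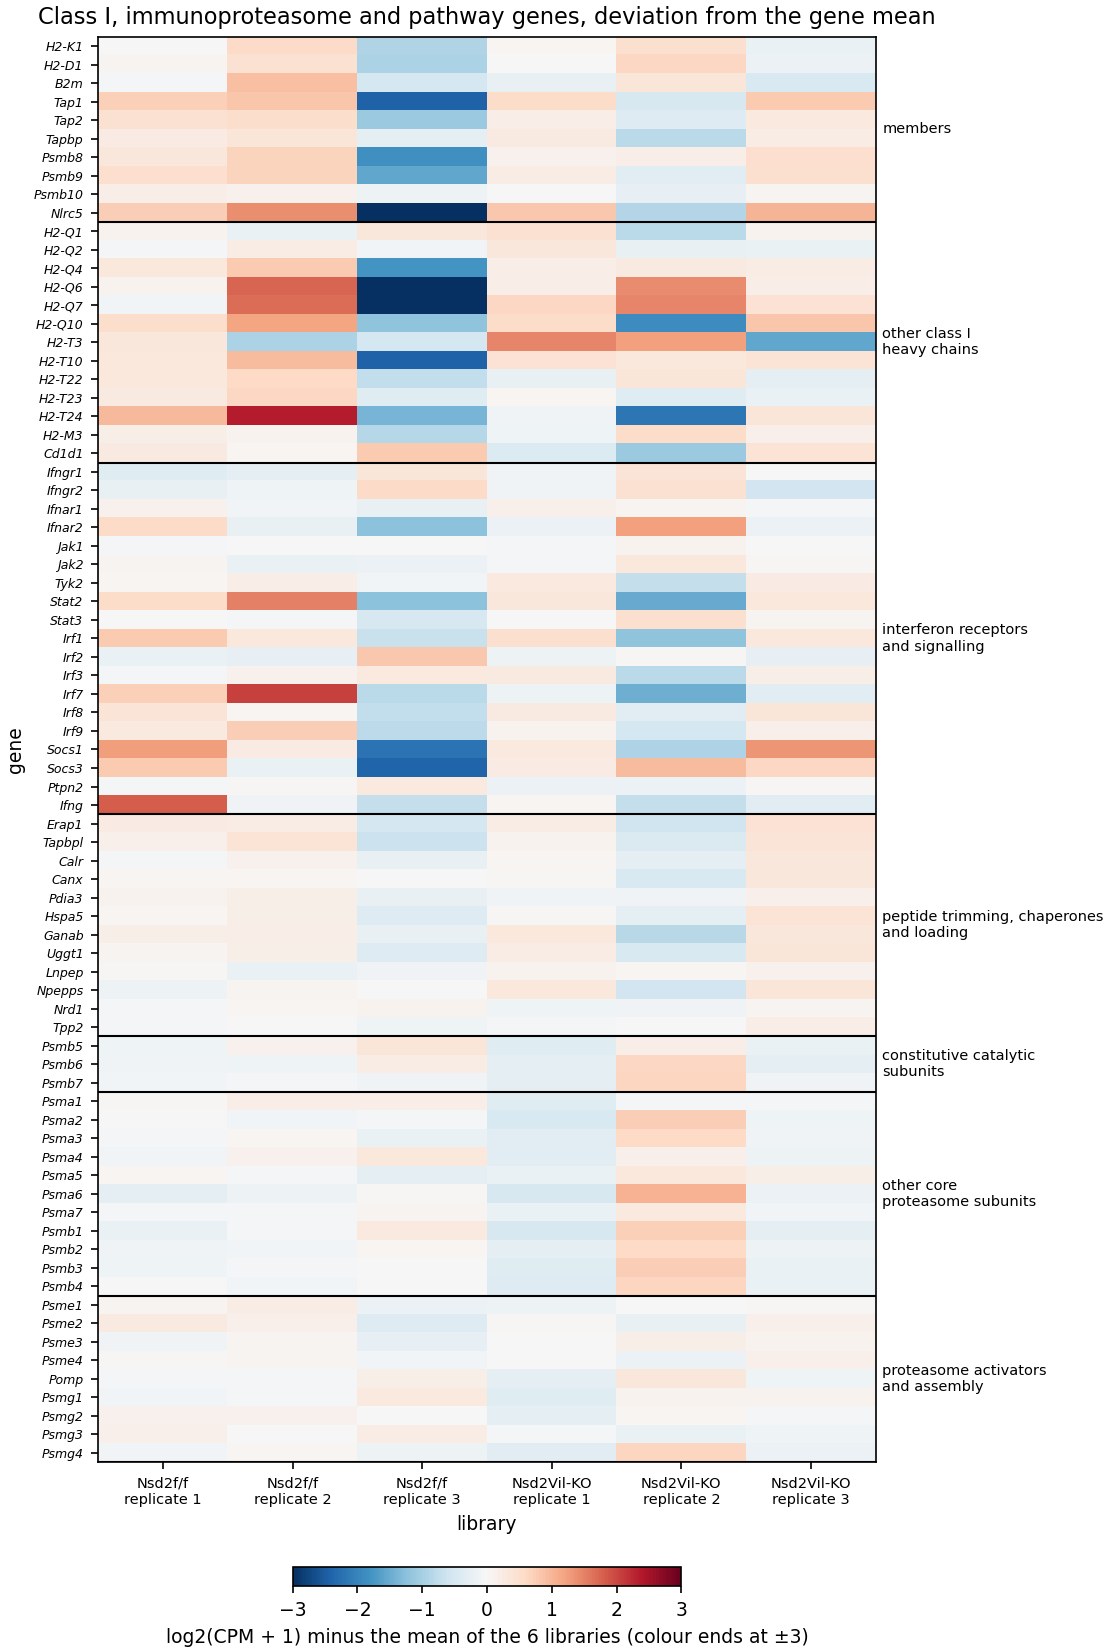
Deviation of log2(CPM + 1) from the mean of the 6 libraries (colour, red above and blue below, ending at ±3) for the 10 genes and tested genes of 6 pathway lists (rows), in each library (columns). The column of Nsd2f/f replicate 3 is blue over most of the top block, over H2-Q4, H2-Q6 and H2-Q7 and over part of the interferon block. It is pale over Tapbp and Psmb10 and over the constitutive and other core proteasome subunits.

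Over the 6 libraries, the log2 CPM of the 45 pairs of the 10 genes had a median Pearson correlation of 0.69, given as a description, since every pair shares the same libraries, and 2 of them stand apart. With 4 libraries left it was not computed. The chains H2-K1, H2-D1 and B2m correlated between 0.806 and 0.984 among themselves, and Nlrc5 with Tap1, Psmb9 and Tap2 at 0.994, 0.993 and 0.986. Pairs without Nlrc5 were as high. Tap1 with Psmb9 had 0.995, the highest of all pairs, Tap2 with Psmb9 0.992 and Tap1 with Tap2 0.984. Between the 3 chains and the other 7 genes the median was 0.539. Among 13331 tested genes averaging 1 CPM or more, those with a pattern most like the mean of the 10 genes were Cd72 (0.999), Zfp131 (0.998), Sp110 (0.996), Cgas (0.995) and Taf1a (0.994), beside a median correlation of 0.01 over all genes compared. Cd72, a receptor of B cells, had between 0.485 and 3.84 CPM, and Zfp131 between 18.7 and 34.7 CPM. Sp110, a nuclear body protein, had between 6.71 and 34.9 CPM. Cgas, the sensor of cytosolic DNA, had between 1.54 and 11.3 CPM, and Taf1a between 5.09 and 14.1 CPM. Each was lowest in Nsd2f/f replicate 3 and highest in Nsd2f/f replicate 2. These 5 were picked as the highest of 13331 correlations over 6 libraries, so no shared function is read from them.

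The constitutive subunits that the immunoproteasome replaces did not share this pattern. Psmb5 had 50.1, 60.2 and 71.2 CPM in Nsd2f/f and 42.7, 62.8 and 47.8 CPM in Nsd2Vil-KO, and its highest library was Nsd2f/f replicate 3. Psmb6 (110, 109 and 139 CPM, then 96.2, 183 and 96.8 CPM) and Psmb7 (66.7, 67.4 and 66.0 CPM, then 57.4, 110 and 66.0 CPM) were highest in Nsd2Vil-KO replicate 2. Their log2 fold changes were −0.24, 0.07 and 0.22, and 0 of the 3 passed the criterion. The log2 ratio of counts of each immunoproteasome subunit to the constitutive subunit it replaces, which does not depend on the scaling of libraries, was therefore computed within each library.

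The log2 ratio of Psmb8 to Psmb5 was 0.53, 0.59 and −2.23 in Nsd2f/f and 0.53, 0.04 and 0.76 in Nsd2Vil-KO, a difference of 0.81 (exact permutation test, two-sided, p = 0.6). The log2 ratio of Psmb9 to Psmb6 was 0.40, 0.60 and −2.01 in Nsd2f/f and 0.33, −1.16 and 0.56 in Nsd2Vil-KO, a difference of 0.25 (exact permutation test, p = 0.9). For Psmb10 to Psmb7 it was 1.97, 1.9 and 1.63 in Nsd2f/f and 1.97, 0.81 and 1.87 in Nsd2Vil-KO, a difference of −0.28 (exact permutation test, p = 0.7). In each pair the 4 libraries without Xist transcripts lay close together and the spread came from the other libraries. The mean of the 3 log2 ratios was 0.38 ± 1.08 in Nsd2f/f and 0.63 ± 0.64 in Nsd2Vil-KO (SD, n = 3, exact permutation p = 0.7), and the genotypes differed by 0.26 over 6 libraries and by 0.01 over those 4. Without Nsd2f/f replicate 3 the difference was −0.36.

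**Figure D4:**
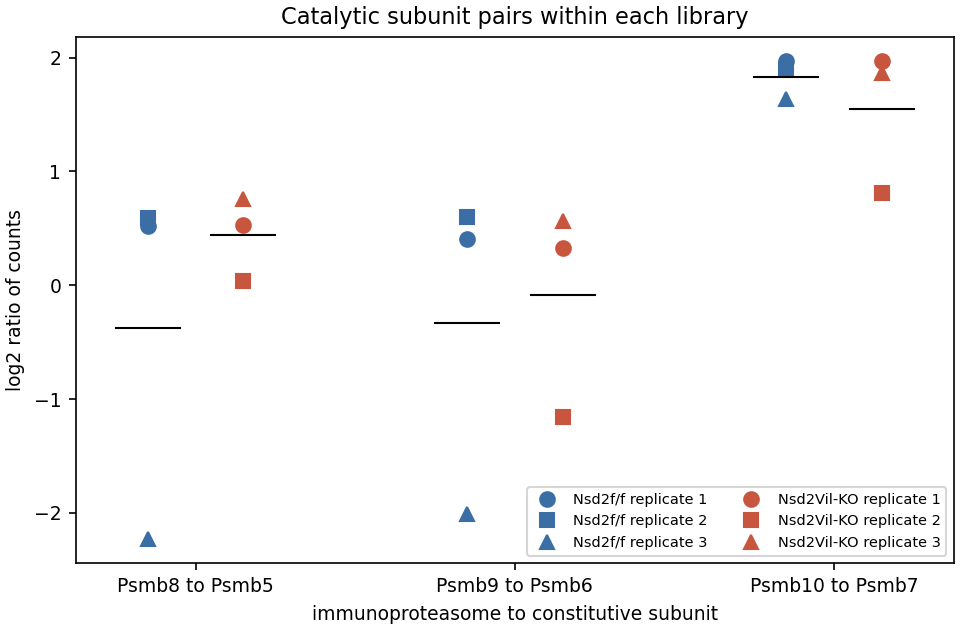
Log2 ratio of counts (vertical axis) of each immunoproteasome subunit to the constitutive subunit it replaces (horizontal axis) in the 6 libraries, with blue for Nsd2f/f, red for Nsd2Vil-KO, the shape for the replicate and a black line for the mean of 3 libraries. The blue triangles of Nsd2f/f replicate 3 are lowest for Psmb8 and Psmb9, at −2.23 and −2.01, and the red square of Nsd2Vil-KO replicate 2 is lowest for Psmb10, at 0.81.

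The rest of the pathway was followed in 83 genes of 7 lists, of which 79 were tested and 0 passed the criterion, with a smallest unadjusted p of 0.0517 for Irf7. Of 17 other class I heavy chains, 13 were tested, 6 higher and 7 lower in Nsd2Vil-KO (median log2 fold change −0.05). H2-T23, which encodes the nonclassical molecule Qa-1, had 407, 522 and 263 CPM in Nsd2f/f and 352, 264 and 298 CPM in Nsd2Vil-KO (log2 fold change −0.38). H2-Q4 had 147, 206 and 33.5 CPM in Nsd2f/f and 135, 144 and 139 CPM in Nsd2Vil-KO (log2 fold change 0.11). H2-Q7, a Qa-2 gene, had 71.9, 244 and 3.56 CPM in Nsd2f/f and 117, 212 and 102 CPM in Nsd2Vil-KO (log2 fold change 0.43, 95% interval −2.13 to 2.99). In Nsd2f/f replicate 3, 10 of the 13 were below both other controls and 8 were under 0.5 times their mean, beside 44.1% and 15.7% of tested genes.

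Of 12 genes of peptide trimming, chaperones and loading, 8 were higher and 4 lower, with a median log2 fold change of 0.08. The most abundant were the endoplasmic reticulum chaperones Calr, Pdia3 and Hspa5. Calr had between 980 and 1257 CPM in Nsd2f/f and between 945 and 1453 CPM in Nsd2Vil-KO (log2 fold change 0.10), and Pdia3 and Hspa5 had −0.04 and 0.10. In Nsd2f/f replicate 3, 0 of the 12 were under 0.5 times the mean of the other controls, where 15.7% of tested genes were. In Nsd2Vil-KO replicate 2, 10 of the 12 were below both other Nsd2Vil-KO libraries, where 44.1% of tested genes were.

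Of 11 other subunits of the core proteasome, 9 were higher and 2 lower (median log2 fold change 0.14). All 11 were higher in Nsd2Vil-KO replicate 2 than in both other Nsd2Vil-KO libraries, where 43.1% of tested genes were. Psmb4 had 207, 198 and 208 CPM in Nsd2f/f and 159, 327 and 182 CPM in Nsd2Vil-KO (log2 fold change 0.13), and Psmb1 and Psma1 had 0.05 and −0.29. Of 9 activators and assembly factors, 2 were higher and 7 lower, with a median of −0.05. Psme1 and Psme2, the subunits of the activator that interferon gamma raises, had log2 fold changes of −0.09 and −0.05, and Psme4 had −0.01. Of these 9, 0 were under 0.5 times the mean of the other controls in Nsd2f/f replicate 3, where 15.7% of tested genes were.

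Of 20 genes of interferon receptors and signalling, 9 were higher and 11 lower, with a median log2 fold change of −0.10. Ifngr1, a chain of the interferon gamma receptor, had 255, 268 and 427 CPM in Nsd2f/f and 308, 432 and 334 CPM in Nsd2Vil-KO (log2 fold change 0.18), and Stat3 had 0.37. Irf1, a transcription factor that acts on class I and immunoproteasome promoters, had 339, 248 and 123 CPM in Nsd2f/f and 275, 84.9 and 245 CPM in Nsd2Vil-KO (log2 fold change −0.23, 95% interval −1.43 to 0.97). Irf1 was lowest in the libraries with Xist transcripts. Of the other genes of this list, Irf7 and Ifng were chosen after their values were seen. Irf7, which amplifies type I interferon, had 252, 636 and 86.4 CPM in Nsd2f/f and 138, 54.5 and 122 CPM in Nsd2Vil-KO. Ifng had 4.81, 0.532 and 0 CPM in Nsd2f/f and 0.731, 0 and 0.306 CPM in Nsd2Vil-KO, where 0 counts allow up to 0.242 CPM in Nsd2f/f replicate 3 and 0.166 CPM in Nsd2Vil-KO replicate 2 by counting error. In Nsd2f/f replicate 3, 9 of the 20 were under 0.5 times the mean of the other controls, where 15.7% of tested genes were.

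Of 11 factors that bind class I promoters, 7 were higher and 4 lower, with a median of 0.03. Rela and Nfkb1, subunits of NF-kappaB, had log2 fold changes of 0.27 and −0.02, and Nfyc, a subunit of the factor NF-Y, had −0.11. Ciita, named after its values were seen, drives class II promoters and is a relative of Nlrc5. It had 19.8, 17.1 and 0.566 CPM in Nsd2f/f and 31.7, 7.66 and 28.9 CPM in Nsd2Vil-KO, low in the same libraries as Nlrc5.

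In the 4 libraries without Xist transcripts, an alternative added for these lists after the data were seen, 9 of the 79 pathway genes passed the criterion, where 11% of 15030 tested genes did, and 0 had an adjusted p below 0.05 by edgeR, as had 0 of all tested genes, against 1646 past the criterion. Of 13 other heavy chains, 11 were lower in Nsd2Vil-KO (median log2 fold change −0.25), and H2-T22, H2-T23 and H2-T24 passed at −0.71, −0.50 and −1.86. Of the 20 interferon genes 11 were higher and 9 lower (median 0.03), with 4 past the criterion, among them Ifngr1 at 0.31, Irf7 at −1.76 and Irf9 at −0.40. Npepps, a cytosolic aminopeptidase, passed at 0.38 and Ciita at 0.73. The medians turned sign against the fit of 6 libraries for the constitutive subunits (−0.17, 3 of 3 lower) and the other core subunits (−0.20, 10 of 11 lower), and stood at 0.13 for trimming and loading, −0.15 for activators and assembly and 0.10 for the promoter factors. In these 4 libraries 12 of 12 myeloid and 6 of 6 general leukocyte markers were lower in Nsd2Vil-KO, where 50.04% of tested genes were. The median log2 fold changes of these markers were −1.47 and −1.28, and their part in the lower class I values was not tested.

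Most markers of other cells were also low in Nsd2f/f replicate 3, and those of B and plasma cells were split. There 6 of 6 general leukocyte and 12 of 12 myeloid markers were below both other controls, where 44.1% of tested genes were. So were 9 of 11 tested T and NK cell and 7 of 8 tested fibroblast and endothelial markers. Of B and plasma cell markers, 3 of 7 tested were, near the share of all tested genes. Igha, Jchain and Ighm were at 0.0666, 0.081 and 0.557 times the mean of the other controls. The remaining tested ones lay between the other controls and had 5.02 CPM or less in every library. The B and plasma cell sum was 98.2, 286 and 24.2 CPM in Nsd2f/f replicates 1, 2 and 3, the last being the lowest of the 6 libraries. The leukocyte markers summed to 177, 78.8 and 27.1 CPM in Nsd2f/f and 71.6, 85.6 and 36.4 CPM in Nsd2Vil-KO, and Ptprc, which marks leukocytes, had 30.7, 19.1 and 5.74 CPM and then 18.4, 5.71 and 8.68 CPM. Rac2 alone held 60.9 CPM of the sum in Nsd2Vil-KO replicate 2. Of the 6 markers, 3 were lower there than in both other Nsd2Vil-KO libraries and 1 was higher, beside 44.1% and 43.1% of tested genes. T and NK cell markers summed to between 11.3 and 35.9 CPM in Nsd2f/f and between 18.7 and 41.8 CPM in Nsd2Vil-KO, and B and plasma cell markers to between 24.2 and 286 and between 37.6 and 378 CPM. Myeloid markers summed to between 216 and 1041 CPM in Nsd2f/f and between 229 and 2353 CPM in Nsd2Vil-KO, the last in replicate 2. That sum was carried by S100a8 (574 CPM), S100a9 (405 CPM) and Ly6g (1355 CPM). Of the 12 myeloid markers, 7 were lower there than in both other Nsd2Vil-KO libraries, where 44.1% of tested genes were. Fibroblast and endothelial markers summed to between 10.7 and 269 and between 10.4 and 75.6 CPM. The counts of Cd4 and Adgre1 were 0 in Nsd2f/f replicate 3. Epithelial markers summed to 31973 CPM in Nsd2f/f replicate 3, the highest of the 6 libraries, and they did not move alike. Car1 and Slc26a3 were at 9.78 and 3.63 times the mean of the other controls there, and Muc2 at 0.56 times. Of the 13 epithelial markers, 2 were below both other controls. The part of other cells, of Xist and of mitochondrial RNA in the low class I values was not tested, and in bulk libraries fewer cells of a type and less RNA per cell cannot be told apart.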

How the data were processed

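RNA-seq of DSS-treated colon IECs was analysed in 3 Nsd2f/f and 3 Nsd2Vil-KO libraries, grouped by the labels. The authors deposited raw counts of reads per Ensembl gene. Per the methods and the submitters' processing notes, they selected polyA RNA, trimmed with Cutadapt and Trimmomatic and aligned with HISAT2 to GRCm38 (mm10). How reads were counted, and whether by strand, is not given in the sources used here, and labels and methods name different library kits. All 6 columns were used.

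The analysis used edgeR 4.0.16 in R 4.3.3 (TMM, filterByExpr, robust quasi-likelihood test without covariates, Benjamini-Hochberg over 14650 genes). The test was also run on simulated counts. These were drawn independently for each gene with no libraries that stand apart, so that run cannot show how the test behaves with such libraries. Depth was 15439123 to 20350539 counts, with a biological coefficient of variation of 41.2%. Floors of 3 counts cover counting error only. Exact permutation tests were used for single genes and ratios. Exon lengths and positions came from GENCODE vM21, promoters from RefSeq (GRCm38.p6).

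Named were the 10 genes, Nsd2, pathway genes past the criterion, the 3 most abundant of each list and the 5 genes most correlated with the mean of the 10. The members and lists were chosen with earlier results of these data known. Alternatives were other normalisation, filters and models (DESeq2 1.42.0, limma 3.58.1), Xist as a covariate, a replicate block, mitochondrial genes left out and each library left out. The H3K36me2 data and FPKM of the study were not used here, and 2 listed genes are counted in their lists but not reported singly here. Figures were drawn with matplotlib.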

Additional observations from a re-analysis of the deposited data

How the results depend on the processing

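None of the 10 genes passed the criterion in the 18 alternatives run, except B2m under limma-voom with quality weights (1 gene). The count of all genes past it was 482, 861 without a filter, 1145 with Xist as a covariate, 1646 in the 4 libraries without Xist, 1421 with limma-voom, and between 323 and 769 with a library left out, the last without Nsd2Vil-KO replicate 2. With the replicate block it was 303, and the block gave 0.064 for Tap2 and 0.44 for Nlrc5 and changed no call among the 10 genes. Deviations of same-numbered libraries from their genotype means correlated at 0.322, −0.35 and −0.108. No pairing is named in the sources used here. With so few libraries, and some that stand apart, these correlations cannot tell whether same-numbered libraries were pairs.

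Of 180 log2 fold changes of the 10 genes under alternatives, 35 changed sign, and the cause was not tested. Psmb9 was −0.0089 under library size alone and −0.0075 with at least 10 counts in every library. Tap2 and Nlrc5 were 0.077 and 0.57 with Xist as a covariate, and 0.080 and 0.63 in the linear model on log2(CPM + 1). In the 4 libraries without Xist, H2-K1, H2-D1, Tap1, Psmb8 and Psmb9 were −0.37, −0.36, −0.10, −0.18 and −0.23, and the log2 ratio of Psmb9 to Psmb6 differed by −0.057. With limma-voom, H2-K1, H2-D1, Psmb8 and Psmb9 were −0.33, −0.30, −0.069 and −0.13. With each library left out, log2 fold changes ranged from −0.18 to 0.52 for H2-K1, −0.093 to 0.53 for H2-D1, −0.57 to 0.20 for B2m, −0.40 to 0.51 for Tap1, −0.43 to 0.20 for Tap2, −0.34 to 0.11 for Tapbp, −0.23 to 0.66 for Psmb8, −0.43 to 0.36 for Psmb9, −0.22 to −0.03 for Psmb10 and −0.58 to 0.72 for Nlrc5. Their median ranged from −0.37 to 0.44. The ratio differences ranged from −0.11 to 1.29 for Psmb8 to Psmb5, −0.59 to 0.78 for Psmb9 to Psmb6, −0.50 to 0.087 for Psmb10 to Psmb7 and −0.36 to 0.63 for their mean. Library size alone moved the median of all genes to 0.05. Depth was not the limit for these genes, whose lowest count was 34.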

Other observations

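The ratio of heavy chain to light chain RNA was looked at after the values of the 10 genes were seen, and has no test for that reason. The summed level per length of H2-K1 and H2-D1 over that of B2m was 1.22, 0.876 and 0.866 in Nsd2f/f replicates 1, 2 and 3, and 1.36, 1.30 and 1.38 in Nsd2Vil-KO replicates 1, 2 and 3. The genotypes did not overlap in this ratio, though Nsd2f/f replicate 1 lay nearer to the Nsd2Vil-KO libraries than to the other controls. Of tested genes, 9.9% had no overlap in CPM. That share is of single genes and is no background for a ratio of 3 genes picked after their values were seen. Nsd2Vil-KO replicate 2, which stood apart for Nlrc5 and Tap1, lay near the other Nsd2Vil-KO libraries here, and no conclusion is drawn from the ratio.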
